A study of Arabidopsis thaliana with 14 samples.

Results

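The genes described here are 9 nuclear genes of tetrapyrrole and chlorophyll synthesis in Arabidopsis: HEMA2 (AT1G09940), GSA1 (AT5G63570), HEMB1 (AT1G69740), HEME1 (AT3G14930), HEME2 (AT2G40490), CHLI2 (AT5G45930), CHLM (AT4G25080), PORB (AT4G27440) and AT1G74470. They were chosen by name, each with 1 probe set that the annotation of the Affymetrix ATH1 array assigns to that gene alone, and are not all genes of the pathway that the array measures. They are 9 of 13513 probe sets with a single named gene. Each of the 9 has a mean signal above the filter of 42.3 used below, and the lowest signal of any of them on any array was 199 (HEMA2).

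Transcripts were measured in whole wild-type (Col-0) seedlings kept at 22 °C with a 16 h photoperiod (8 h dark) and moved into liquid 0.5x MS medium before the experiment. On day 6 after germination the medium received 50 µM of compound 7606596 or 50 µM of compound 5929745, which are known here only by these code names, in a series whose title speaks of an albino chemical. There were 14 arrays in 7 groups of 2: untreated seedlings at 0 h (about 2000 seedlings), and at 3 h and at 12 h seedlings with 7606596, seedlings with 5929745 and seedlings with no chemical. The labels do not say whether untreated seedlings received the solvent, at what time of day the course began, or whether the 2 arrays of a group came from separately grown seedlings, so p-values measure the spread between these arrays, which may be technical.

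Chlorophyll is built in the plastid from glutamate. Glutamyl-tRNA reductase (HEMA) and glutamate-1-semialdehyde aminotransferase (GSA) make 5-aminolevulinate, the first committed precursor of all tetrapyrroles. HEMB joins 2 of these molecules into porphobilinogen, and HEME decarboxylates uroporphyrinogen on the way to protoporphyrin, from which heme and chlorophyll part. Magnesium chelatase, with its subunit I (CHLI), and the methyltransferase CHLM lead into the chlorophyll branch. Protochlorophyllide oxidoreductase (POR) then needs light to make chlorophyllide, and geranylgeranyl reductase (AT1G74470) reduces the tail that is attached to it and that tocopherols also carry.

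Values are MAS5 signals in linear units, scaled by the authors on each array. Changes are log2 fold changes of signal + 16 from limma, over 15922 probe sets and with Benjamini-Hochberg adjustment, given ± their standard error. A gene was called, that is said to rise or fall, at an adjusted p under 0.05. The seedlings are a mixture of tissues, so fewer cells of a type and less RNA per cell cannot be told apart. Median signals were 151.9 and 159.7 at 0 h and between 160.2 and 168.6 on the later arrays. The actin-3 control probe set had signals of 7372 and 7482 at 0 h, against 8678 to 10650 later. The actin-5 control probe set had 3546 and 3830 at 0 h, against 4376 to 5538 later. Every change against 0 h therefore crosses these differences. The 24 poly-A control probe sets, which report RNA added before labelling, had a mean log2 signal of 6.47 to 6.60 on the 4 later untreated arrays (3 h and 12 h), against 4.67 to 5.25 on the other 10 arrays. Setting a compound against time-matched untreated seedlings, or the later untreated seedlings against those of 0 h, therefore crosses these levels. Comparisons between the compounds, and of either compound with 0 h, lie within 1 poly-A level. The hybridization controls had a mean log2 signal of 10.45 and 10.51 at 12 h in untreated seedlings, 10.81 to 10.98 on the other later arrays and 11.18 and 11.21 at 0 h, so they differed between the times compared. A 25S rRNA probe set had signals of 531 and 466 with 7606596 at 3 h, against 850.3 and 759.6 with 5929745 at 3 h, and from 184 to 541 on the other 10 arrays. The part of these array differences in the results was not tested.

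Of the 9 genes, 6 were called in at least 1 comparison between times. Each such comparison alone called 7.66% to 35.1% of all probe sets, and the share called in at least 1 was not computed. For a compound against untreated seedlings or between the compounds 0 of 9 was called. Those comparisons called 0.848% to 5.02% of all probe sets, so a count of 0 does not set the 9 genes apart. PORB more than doubled in signal within 3 h in all 3 arms. AT1G74470, CHLM and HEME1 were lower at 12 h than at 0 h in all 3 arms, and GSA1 was higher. The 4 other genes moved less: HEME2 fell by 12 h with either compound, while HEMB1, CHLI2 and HEMA2 were not called at any time.

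**Figure D1:**
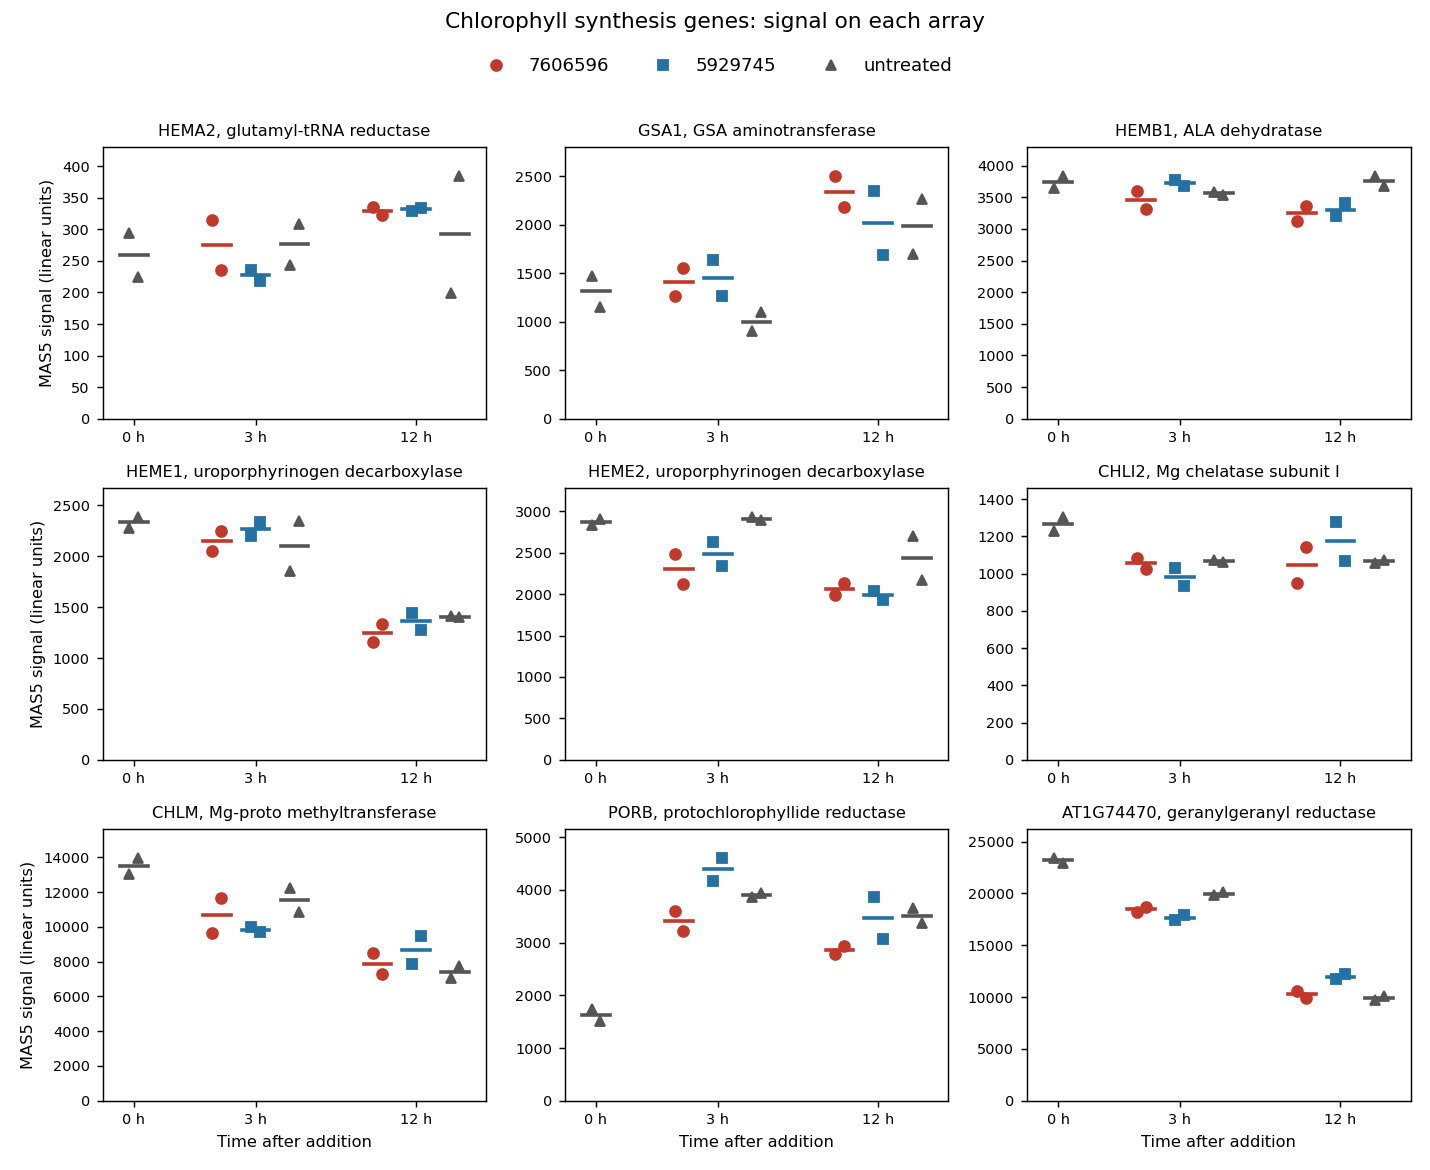
MAS5 signal (linear units, axis from 0) of the 9 genes on each of the 14 arrays against time after addition, with 7606596 (red circles), 5929745 (blue squares) and no chemical (grey triangles); bars are group means of 2 arrays. PORB lies between 1504 and 1748 at 0 h and between 3230 and 4609 at 3 h, and AT1G74470 lies between 22962 and 23434 at 0 h and between 9720 and 12194 at 12 h.

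PORB is one of the light-dependent protochlorophyllide oxidoreductases, and it is expressed in green seedlings. Its signal at 0 h was 1748 and 1504. At 3 h it was 3601 and 3230 with 7606596, 4171 and 4609 with 5929745, and 3873 and 3947 without a chemical. At 12 h it was 2792 and 2945 with 7606596, 3869 and 3074 with 5929745, and 3663 and 3364 without a chemical. All 12 later arrays were above both arrays of 0 h. Ordered by mean, the groups ran from 5929745 at 3 h (4390 ± 309, SD, n = 2) through untreated 3 h, untreated 12 h, 5929745 at 12 h, 7606596 at 3 h and 7606596 at 12 h down to untreated 0 h (1626 ± 173). The arrays of neighbours overlapped between untreated 12 h and 5929745 at 12 h and between 5929745 at 12 h and 7606596 at 3 h, and not elsewhere in that order.

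At 3 h against 0 h, PORB rose by 1.06 ± 0.12 with 7606596 (limma, adjusted p = 1.15e-05). The rise was 1.43 ± 0.12 with 5929745 (adjusted p = 3.96e-07) and 1.26 ± 0.12 in untreated seedlings (adjusted p = 2.16e-06). These 3 comparisons share the 0 h arrays. The rises with the compounds lie within 1 level of the poly-A controls, but not of the hybridization controls. The latter were 11.18 and 11.21 at 0 h and 10.84 to 10.96 on the 3 h arrays with a compound. Of all probe sets tested, 98.2%, 99.3% and 99.1% changed by less than PORB in these comparisons. At 12 h against 0 h the rise was 0.82 ± 0.12 with 7606596 (adjusted p = 4.52e-05), 1.08 ± 0.12 with 5929745 (adjusted p = 1.71e-06) and 1.11 ± 0.12 in untreated seedlings (adjusted p = 1.15e-06). The call held in all 13 alternative settings for each of these 6 values.

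Between 3 h and 12 h the PORB changes were negative in all 3 arms and smaller in size than those of the first 3 h. At 12 h against 3 h the change was -0.25 ± 0.12 with 7606596 (adjusted p = 0.149) and -0.15 ± 0.12 in untreated seedlings (adjusted p = 0.356), and neither was called. With 5929745 PORB fell by 0.35 ± 0.12 (adjusted p = 0.0458). That call ended without 5929745 3 h replicate 1 (-0.42, adjusted p = 0.0706), 5929745 3 h replicate 2 (-0.27, adjusted p = 0.247) or 5929745 12 h replicate 2 (-0.18, adjusted p = 0.381). It also ended with no filter (adjusted p = 0.0679), with quantile normalization (adjusted p = 0.0667), with no variance trend (adjusted p = 0.102) and with only the arrays compared (adjusted p = 0.101). The call held in 6 of 13 alternatives, with an adjusted p from 0.0114 to 0.381.

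AT1G74470, the geranylgeranyl reductase gene, had a lower signal on every later array than at 0 h. Its signal was 23434 and 22962 at 0 h. At 3 h it was 18230 and 18689 with 7606596, 17402 and 17906 with 5929745, and 19819 and 20117 without a chemical. At 12 h it was 10586 and 9914 with 7606596, 11772 and 12194 with 5929745, and 9720 and 10100 without a chemical. Every array of 3 h lay below those of 0 h, and every array of 12 h below those of 3 h. In the order of means, untreated 0 h was highest and was followed by untreated 3 h, 7606596 at 3 h, 5929745 at 3 h, 5929745 at 12 h, 7606596 at 12 h and untreated 12 h. The arrays of neighbours in this order overlapped only for the last pair, 7606596 at 12 h and untreated 12 h. Duplicate arrays were close: the residual SD of this gene was 0.037 on the log2 scale, against a median of 0.166 over all probe sets tested.

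AT1G74470 at 12 h fell against 0 h by 1.18 ± 0.09 with 7606596 (adjusted p = 1.08e-08), by 0.95 ± 0.09 with 5929745 (adjusted p = 1.86e-07) and by 1.23 ± 0.09 in untreated seedlings (adjusted p = 6.25e-09). Each of these 3 calls held in all 13 alternatives. The weakest values there were -0.79 with 7606596, -0.59 with 5929745 and -0.88 in untreated seedlings. That of -0.59 came after quantile normalization. Most of the fall came after 3 h. Against 3 h, in comparisons that share no arrays between arms, the change at 12 h was -0.85 ± 0.09 with 7606596 (adjusted p = 1.23e-06), -0.56 ± 0.09 with 5929745 (adjusted p = 0.000146) and -1.01 ± 0.09 in untreated seedlings (adjusted p = 1.18e-07). The weakest values over the alternatives were -0.60, -0.39 and -0.74 in the same order.

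The smaller change of AT1G74470 in the first 3 h was less firm. It was -0.33 ± 0.09 with 7606596 (adjusted p = 0.0301), -0.39 ± 0.09 with 5929745 (adjusted p = 0.00828) and -0.22 ± 0.09 in untreated seedlings, which was not called (adjusted p = 0.135). The call with 7606596 was lost when any 1 of its 4 arrays was left out (-0.31 to -0.35). Those arrays were untreated 0 h replicate 1 (adjusted p = 0.153) and replicate 2 (adjusted p = 0.104) and 7606596 3 h replicate 1 (adjusted p = 0.155) and replicate 2 (adjusted p = 0.129). It also ended with no filter (adjusted p = 0.0959), with no variance trend (adjusted p = 0.101) and after quantile normalization (-0.18, adjusted p = 0.255). The call held in 6 of 13 alternatives, with an adjusted p from 0.0141 to 0.255. The call with 5929745 ended without untreated 0 h replicate 1 (-0.38, adjusted p = 0.0645), without 5929745 3 h replicate 1 (-0.37, adjusted p = 0.0641) and after quantile normalization (-0.20, adjusted p = 0.178), with a range from 0.00495 to 0.178.

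CHLM, which methylates magnesium protoporphyrin, followed AT1G74470. Its signal was 13054 and 13972 at 0 h. At 3 h it was 9671 and 11655 with 7606596, 9978 and 9702 with 5929745, and 12248 and 10872 without a chemical. At 12 h it was 8509 and 7265 with 7606596, 7892 and 9490 with 5929745, and 7069 and 7736 without a chemical. The 0 h arrays were above all others, and the 12 h arrays of each arm were below its 3 h arrays. By mean the groups ran from untreated 0 h through untreated 3 h, 7606596 at 3 h, 5929745 at 3 h, 5929745 at 12 h and 7606596 at 12 h to untreated 12 h. Neighbouring groups of the same time overlapped, and those of different times did not.

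CHLM at 12 h fell against 0 h by 0.78 ± 0.12 with 7606596 (adjusted p = 6.97e-05), by 0.64 ± 0.12 with 5929745 (adjusted p = 0.000488) and by 0.87 ± 0.12 in untreated seedlings (adjusted p = 1.88e-05). These 3 calls held in all 13 alternatives, with weakest values of -0.57, -0.44 and -0.68 in the same order. Against 3 h it fell at 12 h by 0.43 ± 0.12 with 7606596 (adjusted p = 0.0123) and by 0.64 ± 0.12 in untreated seedlings (adjusted p = 0.000475), and its change with 5929745 was -0.18 ± 0.12 (adjusted p = 0.295). The call with 7606596 ended without 7606596 3 h replicate 2 (-0.30, adjusted p = 0.179), without 7606596 12 h replicate 2 (-0.32, adjusted p = 0.144) and after quantile normalization (-0.30, adjusted p = 0.0652), with a range from 0.00961 to 0.179.

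In the first 3 h the change of CHLM was -0.35 ± 0.12 with 7606596 (adjusted p = 0.098) and -0.23 ± 0.12 in untreated seedlings (adjusted p = 0.254). With 5929745 it fell by 0.46 ± 0.12 (adjusted p = 0.0213). This call ended without any 1 of its 4 arrays: untreated 0 h replicate 1 (-0.51, adjusted p = 0.0664), untreated 0 h replicate 2 (-0.41, adjusted p = 0.148), 5929745 3 h replicate 1 (-0.48, adjusted p = 0.084) and 5929745 3 h replicate 2 (-0.44, adjusted p = 0.132). It also ended with no filter (adjusted p = 0.0627), with quantile normalization (adjusted p = 0.0649) and with no variance trend (adjusted p = 0.0885). The call held in 6 of 13 alternatives, with an adjusted p from 0.0106 to 0.148.

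HEME1 encodes 1 of the 2 uroporphyrinogen decarboxylases measured. Its signal was 2282 and 2388 at 0 h. At 3 h it was 2049 and 2247 with 7606596, 2199 and 2336 with 5929745, and 1858 and 2345 without a chemical. At 12 h it was 1158 and 1334 with 7606596, 1445 and 1279 with 5929745, and 1412 and 1403 without a chemical. The arrays fell into 2 ranges, from 1858 to 2388 at 0 h and 3 h and from 1158 to 1445 at 12 h. In the order of means (untreated 0 h, then 5929745, 7606596 and untreated at 3 h, then untreated, 5929745 and 7606596 at 12 h) neighbours overlapped except between 3 h and 12 h. HEME1 was not called at 3 h against 0 h in any arm, with changes from -0.16 to -0.04.

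HEME1 at 12 h fell against 3 h by 0.78 ± 0.12 with 7606596 (adjusted p = 0.000118), by 0.73 ± 0.12 with 5929745 (adjusted p = 0.000242) and by 0.56 ± 0.12 in untreated seedlings (adjusted p = 0.00177). Against 0 h it fell at 12 h by 0.90 ± 0.12, 0.77 ± 0.12 and 0.72 ± 0.12 in the arms in the same order (adjusted p = 1.89e-05, 9.79e-05 and 0.000164). Each of these 6 calls held in all 13 alternatives.

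HEME2, the other uroporphyrinogen decarboxylase gene, was called only at 12 h against 0 h, and only with the compounds. Its signal was 2832 and 2903 at 0 h. At 3 h it was 2479 and 2117 with 7606596, 2624 and 2342 with 5929745, and 2933 and 2892 without a chemical. At 12 h it was 1988 and 2136 with 7606596, 2044 and 1929 with 5929745, and 2696 and 2168 without a chemical. The untreated arrays of 3 h overlapped those of 0 h, and all arrays with a compound lay below both. The highest mean was that of untreated 3 h (2912 ± 29.6, SD, n = 2) and the lowest that of 5929745 at 12 h (1986 ± 81.5).

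HEME2 at 12 h fell against 0 h by 0.47 ± 0.12 with 7606596 (adjusted p = 0.0058) and by 0.53 ± 0.12 with 5929745 (adjusted p = 0.00256). In untreated seedlings the change was -0.24 ± 0.12 and was not called (adjusted p = 0.128). The 2 untreated arrays of 12 h differed: without replicate 1 the change was -0.40 and was called (adjusted p = 0.0461), and over its alternatives it was also called with arrays centred on their median (-0.34, adjusted p = 0.0336). The call with 7606596 ended without 7606596 12 h replicate 1 (-0.42, adjusted p = 0.0505, the top of a range from 0.00164). That with 5929745 held in all 13 alternatives. The difference between the compound arms and the untreated arm at 12 h was itself not called, with -0.23 ± 0.12 for 7606596 (adjusted p = 0.427) and -0.28 ± 0.12 for 5929745 (adjusted p = 0.275). HEME2 was not called at 12 h against 3 h in any arm, with changes of -0.15, -0.32 and -0.27 for 7606596, 5929745 and untreated seedlings. In the untreated arm it was called without untreated 12 h replicate 1 (-0.42, adjusted p = 0.0382), and with 5929745 after median centring (-0.35, adjusted p = 0.0397).

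GSA1, which makes 5-aminolevulinate, ran against the falling genes. Its signal was 1475 and 1156 at 0 h. At 3 h it was 1271 and 1550 with 7606596, 1636 and 1264 with 5929745, and 901 and 1102 without a chemical. At 12 h it was 2506 and 2182 with 7606596, 2345 and 1684 with 5929745, and 1699 and 2269 without a chemical. All 12 h arrays were above all others, and both untreated arrays of 3 h were below all others. Duplicates were farther apart than for most genes, with a residual SD of 0.247 on the log2 scale. In the order of means (7606596, 5929745 and untreated at 12 h, then 5929745 and 7606596 at 3 h, untreated 0 h and untreated 3 h) neighbours overlapped within 12 h and among the next 3, and not below them.

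GSA1 at 12 h rose against 0 h by 0.83 ± 0.18 with 7606596 (adjusted p = 0.00179), by 0.60 ± 0.18 with 5929745 (adjusted p = 0.0178) and by 0.58 ± 0.18 in untreated seedlings (adjusted p = 0.0178). The call with 7606596 held in all 13 alternatives. The call with 5929745 ended without untreated 0 h replicate 2 (0.43, adjusted p = 0.191), without 5929745 12 h replicate 1 (0.36, adjusted p = 0.223) and with no variance trend (0.60, adjusted p = 0.062), with a range from 0.00523 to 0.223. The untreated call ended without untreated 0 h replicate 2 (0.41, adjusted p = 0.19), without untreated 12 h replicate 2 (0.38, adjusted p = 0.223) and with no variance trend (0.58, adjusted p = 0.0596), with a range from 0.00772 to 0.223.

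Measured from 3 h, GSA1 at 12 h rose by 0.73 ± 0.18 with 7606596 (adjusted p = 0.00566) and by 0.97 ± 0.18 in untreated seedlings (adjusted p = 0.000445), and its change with 5929745 was 0.46 ± 0.18 (adjusted p = 0.0716). The call with 7606596 ended without 7606596 3 h replicate 1 (0.59, adjusted p = 0.0751) or 7606596 12 h replicate 1 (0.63, adjusted p = 0.0542), with a range from 0.00157 to 0.0751. With 5929745 GSA1 was called without 5929745 12 h replicate 2 (0.70, adjusted p = 0.0201). At 3 h against 0 h it was not called in any arm, with changes of 0.10 for 7606596, 0.14 for 5929745 and -0.38 for untreated seedlings.

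**Figure D2:**
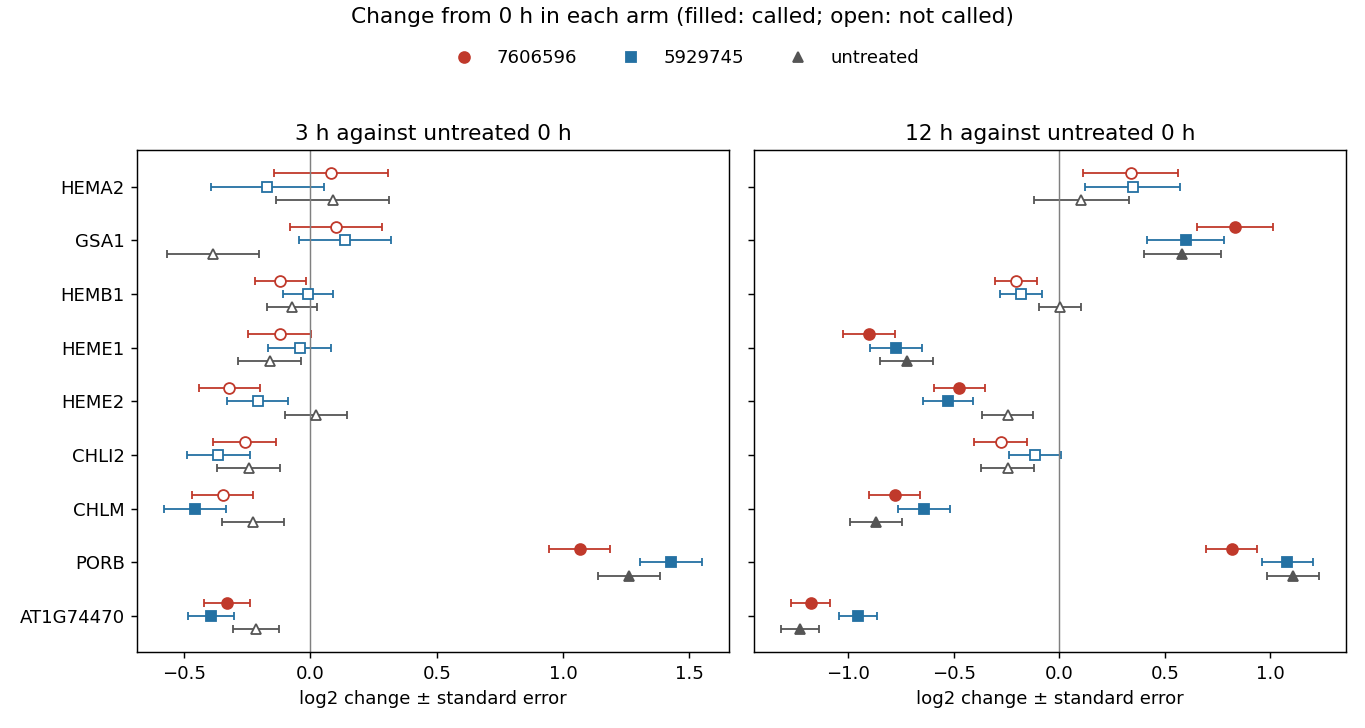
Log2 change from untreated 0 h (x axis, ± standard error of the limma fit) of the 9 genes at 3 h (left) and 12 h (right), with 7606596 (red circles), 5929745 (blue squares) and no chemical (grey triangles); filled points were called and open points were not. PORB lies at 1.06, 1.43 and 1.26 at 3 h in the 3 arms, and AT1G74470 at -1.18, -0.95 and -1.23 at 12 h; all 3 arms share the 0 h arrays.

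HEMB1, CHLI2 and HEMA2 were not called in any of the 18 comparisons. HEMB1, whose enzyme makes porphobilinogen, ranged from 3123 to 3839 over the 14 arrays. Its highest group mean was 1.16 times its lowest, and 1.76% of probe sets tested had a smaller ratio. CHLI2, a copy of the magnesium chelatase ATPase subunit, ranged from 933 to 1305, with 1227 and 1305 at 0 h and a median of 1070 over the 14 arrays. HEMA2, a glutamyl-tRNA reductase gene best known from roots and other tissues without much chlorophyll, ranged from 199 to 385, and both extremes were arrays of untreated 12 h seedlings. HEMA2 had the widest spread between duplicates of the 9 genes, with a residual SD of 0.295 on the log2 scale, so its arrays overlap between neighbours throughout the order of group means. With arrays centred on their median, HEMB1 was called at 12 h against 0 h with 7606596 (-0.28, adjusted p = 0.0435). Under the same centring CHLI2 was called in that comparison (-0.35, adjusted p = 0.039), at 12 h against 0 h in untreated seedlings (-0.34, adjusted p = 0.0392) and at 3 h against 0 h with 5929745 (-0.42, adjusted p = 0.038). HEMA2 was called at 12 h against 3 h with 5929745 when only the arrays of those 2 groups were fitted (0.52, adjusted p = 0.0318).

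Counted over the 9 genes, 1 rose and 1 fell at 3 h against 0 h with 7606596, where 4.99% of probe sets rose and 2.67% fell (7.66% in all). With 5929745 1 rose and 2 fell, where 5.55% of probe sets rose and 4.13% fell (9.68% in all). In untreated seedlings 1 rose and 0 fell, where 6.66% of probe sets rose and 5.40% fell (12.1% in all). PORB was the gene that rose in each arm.

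By 12 h, 2 of the 9 genes (GSA1 and PORB) had risen and 4 had fallen against 0 h with 7606596, where 16.3% of probe sets rose and 12.4% fell (28.7% in all). With 5929745 2 rose and 4 fell, where 17.1% of probe sets rose and 12.5% fell (29.5% in all). In untreated seedlings 2 rose and 3 fell, where 19.9% of probe sets rose and 15.2% fell (35.1% in all). The median change of the 9 genes at 12 h was -0.28 with 7606596, -0.18 with 5929745 and -0.24 in untreated seedlings, against 0.04, 0.04 and 0.05 over all probe sets.

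From 3 h on, 1 gene rose and 3 fell with 7606596 (12 h against 3 h), where 14% of probe sets rose and 12.4% fell (26.5% in all). With 5929745 0 rose and 3 fell, where 13.8% of probe sets rose and 11.5% fell (25.4% in all). In untreated seedlings 1 rose and 3 fell, where 18.2% of probe sets rose and 16.0% fell (34.2% in all). These counts describe the 9 genes, and whether they depart from the shares over all probe sets was not tested. The mean signals of the 9 genes lay at percentiles from 60.1 (HEMA2) to 99.6 (AT1G74470) of all probe sets. No share was taken over probe sets of like signal.

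The counts at 3 h with the compounds became smaller when single arrays were left out, which leaves 1 array in a group. The change of AT1G74470 with 7606596 then stayed between -0.35 and -0.31. The single call in untreated seedlings (PORB) held in all 13 alternatives. The 2 calls with 7606596 became 1 without any 1 of the arrays compared (untreated 0 h replicate 1 or 2, 7606596 3 h replicate 1 or 2), and the 3 calls with 5929745 became 1 without untreated 0 h replicate 1 or 5929745 3 h replicate 1. The gene that remained called in each of these cases was PORB.

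The effect of each compound was read against untreated seedlings of the same time. With 7606596, limma called 0 of 9 genes at 3 h, where 5.02% of probe sets were called and 2 of the 9 had an unadjusted p under 0.05. It called 0 of 9 at 12 h, where 1.54% of probe sets were called and 2 of the 9 had an unadjusted p under 0.05. With 5929745 it called 0 of 9 at 3 h (1.15% of probe sets called, 1 gene with an unadjusted p under 0.05) and 0 of 9 at 12 h (1.40% of probe sets called, 2 genes). With so few probe sets called in all, 0 of 9 does not set these genes apart. The median changes of the 9 genes were -0.05 and -0.03 for 7606596 and -0.12 and 0.02 for 5929745 at 3 h and 12 h, against -0.02, -0.02, -0.01 and -0.01 over all probe sets.

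A missed threshold does not show that the genes stayed the same, and the intervals give what the arrays allow. Over the 36 values of 9 genes, 2 compounds and 2 times, the 95% intervals of the fold change (log2 scale with the offset) reached from 0.603 to 1.87. All 36 intervals lay within a 2-fold change in either direction, and 29 within a 1.5-fold change. The widest were those of HEMA2 and GSA1, the genes with the most variable duplicates.

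The values farthest from 0 were those of GSA1 with both compounds and of HEME2 with 7606596, all at 3 h. GSA1 was 1.40 times as high with 7606596 as without a chemical (95% interval 1.08 to 1.83, adjusted p = 0.134) and 1.44 times with 5929745 (upper bound 1.87, adjusted p = 0.164). Both comparisons share the untreated arrays of 3 h, which were the lowest GSA1 arrays of the series and carried the higher poly-A signals, so the compounds and the array level cannot be told apart here. Both compound groups overlapped the arrays of 0 h. HEME2 was 0.788 times as high with 7606596 at 3 h (0.661 to 0.939, adjusted p = 0.109) and 0.852 times with 5929745 (0.715 to 1.02, adjusted p = 0.365). At 12 h AT1G74470 was 1.21 times as high with 5929745 as without a chemical (1.06 to 1.38, adjusted p = 0.151) and 1.03 times with 7606596 (0.906 to 1.18, adjusted p = 0.868). PORB at 12 h was 0.818 times as high with 7606596 (0.685 to 0.977, adjusted p = 0.297) and 0.983 times with 5929745 (0.823 to 1.17, adjusted p = 0.95).

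The compounds were compared with each other at the same dose and time, in 18 pairs of a gene and a time, with p adjusted over all probe sets. Limma called 0 of 9 genes at 3 h, where 0.917% of probe sets were called and 1 of the 9 had an unadjusted p under 0.05, and 0 of 9 at 12 h, where 0.848% were called and 2 had an unadjusted p under 0.05. PORB had the smallest p. Its signal at 3 h was 3601 and 3230 with 7606596, against 4171 and 4609 with 5929745, with no overlap, a ratio of 0.779 (95% interval 0.652 to 0.93, adjusted p = 0.259). At 12 h PORB was 2792 and 2945 with 7606596, against 3869 and 3074 with 5929745, also without overlap (0.832, interval 0.697 to 0.994, adjusted p = 0.585). AT1G74470 at 12 h was 10586 and 9914 with 7606596, against 11772 and 12194 with 5929745 (0.855, interval 0.75 to 0.976, adjusted p = 0.461). All 18 intervals lay within a 2-fold change and 15 within a 1.5-fold change, and the outermost bounds were 0.652 for PORB and 1.65 for HEMA2, both at 3 h.

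**Figure D3:**
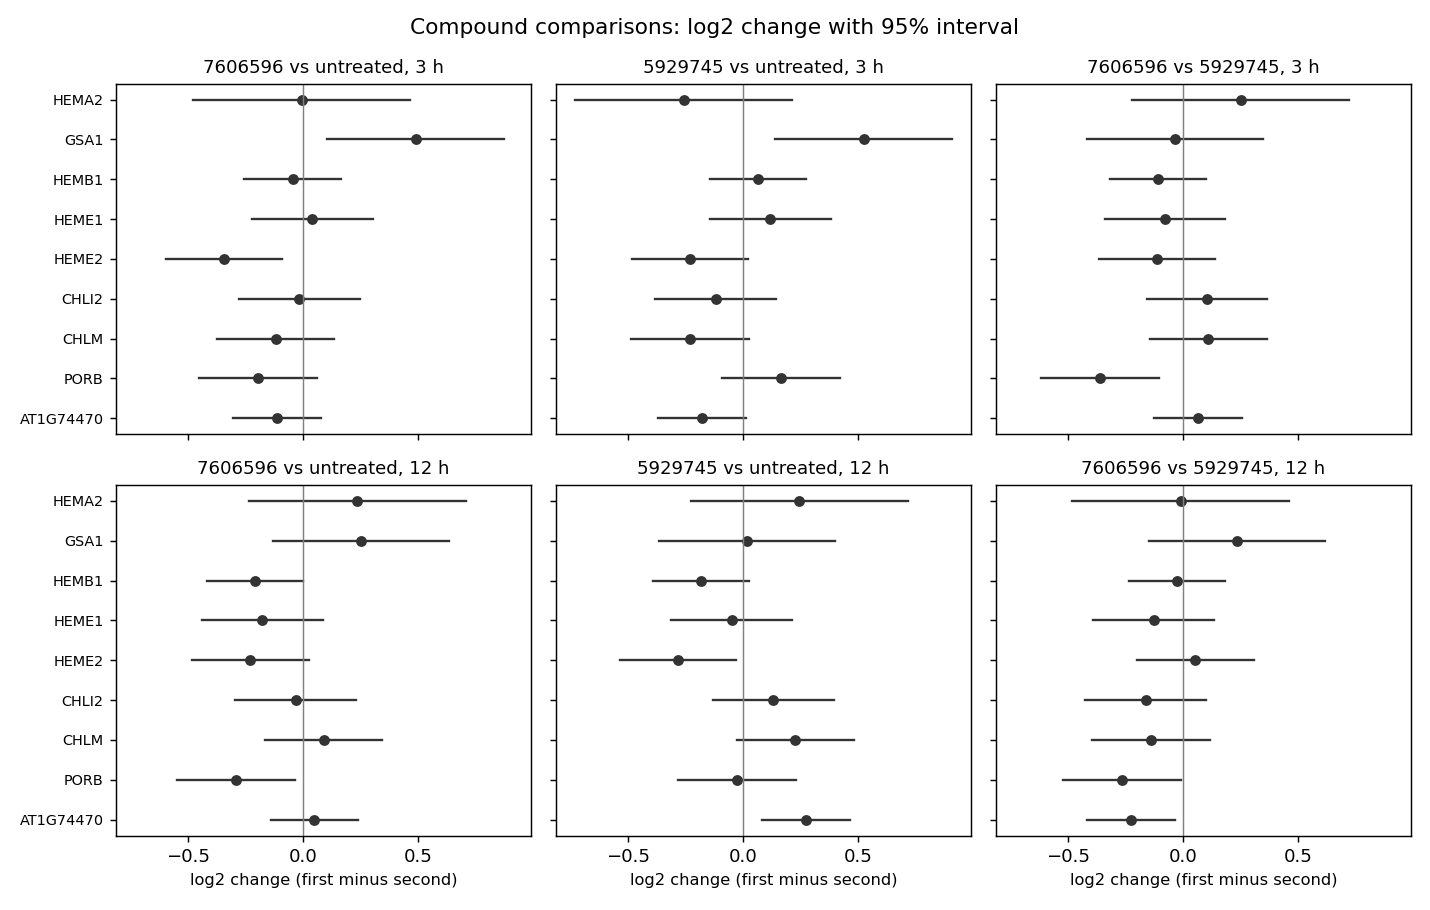
Log2 change (points) with 95% interval (lines) of the 9 genes in 6 panels: 7606596 against untreated, 5929745 against untreated and 7606596 against 5929745, at 3 h (top) and 12 h (bottom), from limma on log2(signal + 16). None of the 54 values was called; GSA1 at 3 h lies at 0.49 and 0.52 against untreated seedlings, and PORB lies at -0.36 and -0.26 between the compounds at 3 h and 12 h.

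An interaction term asked whether a compound's effect differed between the times. Limma called 0 of 9 genes for 7606596 (0.132% of probe sets called, 0 of the 9 with an unadjusted p under 0.05). It called 0 of 9 for 5929745 (0.113% of probe sets, 2 genes with an unadjusted p under 0.05) and 0 of 9 for the difference between the compounds (0.0502% of probe sets, 1 gene). The 2 genes were AT1G74470, with an effect of 5929745 that was higher at 12 h by 0.45 ± 0.13 (adjusted p = 0.185), and CHLM, with 0.46 ± 0.17 (adjusted p = 0.332). The slower decline of both genes with 5929745 between 3 h and 12 h, given above, was thus not called as a difference from untreated seedlings. For the difference between the compounds AT1G74470 had -0.29 ± 0.13 (adjusted p = 0.78).

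**Figure D4:**
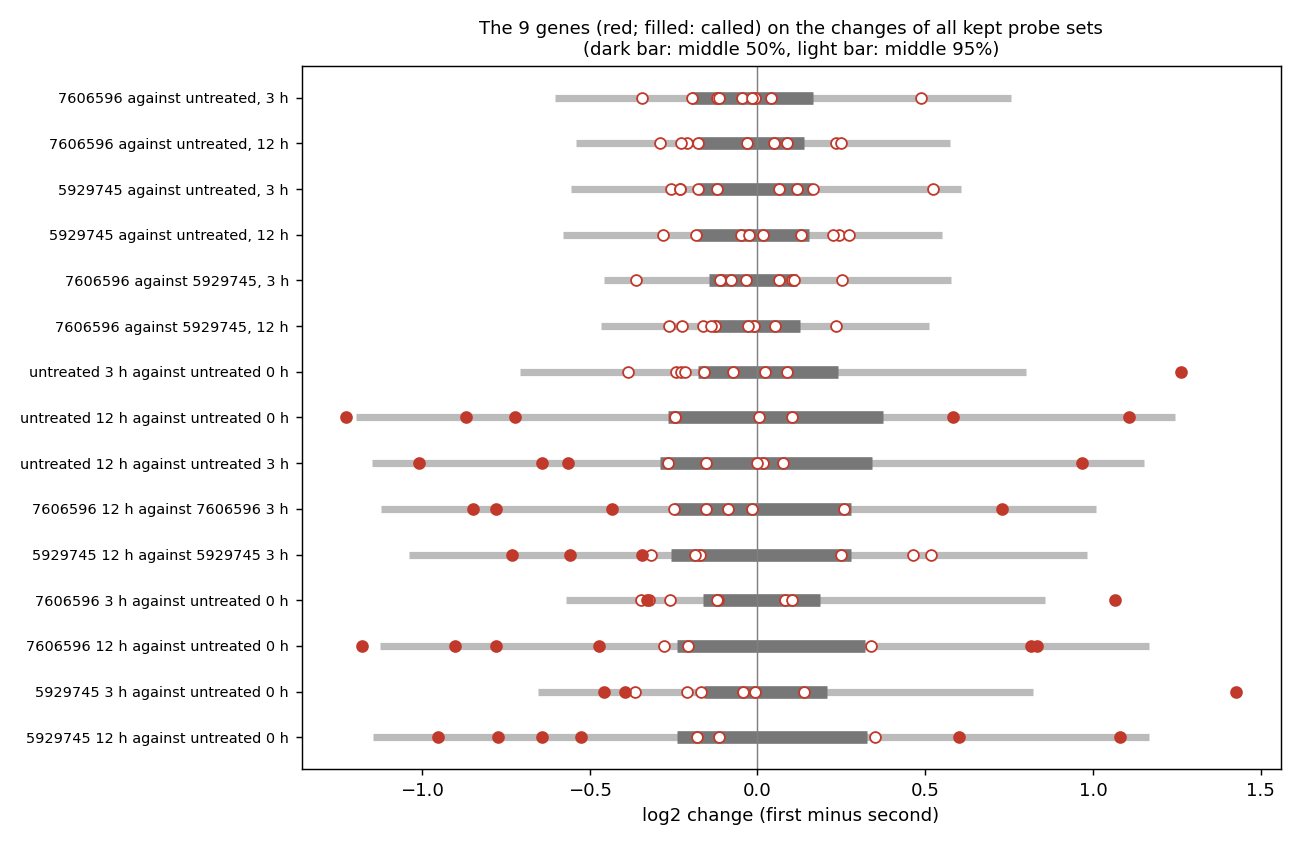
Log2 changes of the 9 genes (red circles, filled where called) in 15 comparisons, drawn over the changes of all 15922 probe sets tested (dark bar, the middle 50%; light bar, the middle 95%). In the 6 comparisons of compounds the genes lie within the light bars and none is filled, and in the 3 comparisons of 3 h with 0 h PORB alone lies beyond them.

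Beyond the 9 genes, 33 further genes of tetrapyrrole synthesis, its heme and bilin branches, its regulation and chlorophyll breakdown were listed. A probe set of a single named gene was found for 3 of them, of which HEMA3 lay below the filter and was not tested, and the others were not analysed here. NOL, a chlorophyll b reductase, was not called in any comparison and ranged from 454 to 644 over the arrays. HEMB2 (named hemb2 in the annotation), a second gene of the HEMB family, was close to the filter, with signals from 20.3 to 62.3. It fell with 5929745 by 0.93 ± 0.31 at 12 h against 3 h (adjusted p = 0.0336) and by 0.88 ± 0.31 at 12 h against 0 h (adjusted p = 0.0393). Its signal was 20.3 and 21.4 with 5929745 at 12 h, against 62.3 and 47.2 with 5929745 at 3 h and 46.9 and 57.1 at 0 h. Both calls of hemb2 ended without any 1 of the 4 arrays compared (5929745 12 h replicates 1 and 2 with 5929745 3 h replicates 1 and 2 or untreated 0 h replicates 1 and 2), with changes from -0.77 to -1.09 and adjusted p from 0.0664 to 0.198 in the comparison with 3 h and from 0.0789 to 0.177 in that with 0 h. They also ended with quantile normalization (adjusted p = 0.0513 and 0.0532) and with only the arrays compared (adjusted p = 0.0609 and 0.091). At these signals the size of the hemb2 change depended on the offset: against 3 h it was -1.34 with an offset of 1 and -0.48 with an offset of 64, and against 0 h it was -1.27 and -0.45. Against untreated seedlings of 12 h hemb2 was not called (-0.73 ± 0.31, adjusted p = 0.272). None of 14 listed regulators of greening had a probe set of a single named gene.

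The few markers of green tissue and root with a probe set of a single named gene were read over the same times. RCA, the Rubisco activase gene, was the 1 of 10 listed green tissue genes with such a probe set. Its mean signals at 12 h were 19365 with 7606596, 21359 with 5929745 and 21070 without a chemical, against 35119 at 0 h. It fell by 0.86 ± 0.10, 0.72 ± 0.10 and 0.74 ± 0.10 in these arms (adjusted p = 2.32e-06, 1.91e-05 and 1.2e-05), and after quantile normalization by 0.36, 0.26 and 0.24. Of 10 listed root genes 2 had such a probe set, and the other listed markers were not analysed here. PYK10, a root beta-glucosidase, ranged from 10975 to 20299 and was not called in any comparison. Among the alternatives, it was called lower than 0 h with 5929745 when arrays were centred on their median. The values were -0.51 at 3 h (adjusted p = 0.0426) and -0.43 at 12 h (adjusted p = 0.0416). After quantile normalization it was called higher in untreated seedlings at 12 h against 3 h (0.53, adjusted p = 0.0125). Without untreated 0 h replicate 1 (13436, against 20299 in replicate 2) PYK10 was called lower than 0 h with 5929745 at 3 h (-0.75) and 12 h (-0.65), with 7606596 at 12 h (-0.60) and in untreated seedlings at 3 h (-0.57). EXPA7, a root hair expansin, had mean signals of 60.8 with 7606596, 48.4 with 5929745 and 66.5 without a chemical at 12 h, against 95.9 at 0 h. EXPA7 fell with 5929745 at 12 h against 0 h (-0.76 ± 0.27, adjusted p = 0.0397), but not without untreated 0 h replicate 2 (-0.42), 5929745 12 h replicate 1 (-0.87) or 5929745 12 h replicate 2 (-0.65). Against 3 h it fell at 12 h by 0.81 ± 0.27 with 7606596 (adjusted p = 0.0307) and by 0.84 ± 0.27 with 5929745 (adjusted p = 0.0277). The first of these EXPA7 calls ended without 7606596 3 h replicate 1 (-0.76), 7606596 3 h replicate 2 (-0.87) or 7606596 12 h replicate 2 (-0.60), and the second without 5929745 3 h replicate 1 (-0.62), 5929745 12 h replicate 1 (-0.95) or 5929745 12 h replicate 2 (-0.73). EXPA7 also lost these 3 calls with no filter. The call with 5929745 against 0 h ended with only the arrays compared as well (adjusted p = 0.0829). EXPA7 was not called in untreated seedlings (-0.41 at 12 h against 0 h, adjusted p = 0.262). With an offset of 64 the EXPA7 changes with 5929745 were -0.49 against 0 h and -0.54 against 3 h. The part of tissue composition in the changes of the 9 genes was not tested.

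Genes with a like pattern were sought among 8729 other probe sets of a single named gene, by Pearson's r over the 14 arrays, which share their times and arrays, so r is a description. The mean standardised profile of the 9 genes was most like those of AT4G17810 (r = 0.937), AT1G31710 (r = 0.937), ATATH8 (r = 0.925), AT5G42070 (r = 0.922) and PCME (r = 0.915). For single genes the closest matches were AT1G16260 for AT1G74470 (r = 0.987), AT5G16030 for HEME1 (r = 0.972), AT5G14520 for GSA1 (r = 0.949), AT5G54300 for CHLM (r = 0.949) and AT4G26130 for PORB (r = 0.939). Those of the other 4 were AT4G16980 for HEME2 (r = 0.903), AT1G28540 for HEMA2 (r = 0.889), AT5G20940 for HEMB1 (r = 0.863) and AT1G29530 for CHLI2 (r = 0.848). Among the 9 genes, r was highest between CHLM and AT1G74470 (0.935) and between HEME1 and AT1G74470 (0.921), and lowest between GSA1 and AT1G74470 (-0.811). Their mean profile therefore does not stand for each of the 9 genes.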

How the data were processed

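Per the submitters' processing notes, the authors used MAS5 (version not given in the sources used here), which corrects for background, summarises the probes of each set and scales every array separately. The values they deposited are linear signal intensity, and detection calls, scanner files, probe sequences and a genome build were not used here. Of 22810 probe sets, 64 controls were left out, and a filter at the 30th percentile of mean signal (42.3) left 15922. Gene names came from the platform annotation, in which 13513 probe sets have 1 gene and 503 several; 77 of the former had no locus in the RefSeq gene table. None of the identifiers of the 9 probe sets carries the suffix that marks probes shared by several genes. Cross-hybridization between related genes such as CHLI1 and CHLI2 or HEME1 and HEME2 was not tested.

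The fits used log2(signal + 16) in limma 3.58.1 in R 4.3.3, with 1 mean for each of the 7 groups, all 14 arrays in 1 fit and moderated variances with a trend on mean expression (7 residual df, 11.4 prior df). Tests were two-sided, with Benjamini-Hochberg adjustment over all kept probe sets of a comparison; the number of arrays limits the precision. Duplicate arrays had r of 0.983 to 0.989 over probe sets (log2 scale). The fit was tested on simulated data. The named genes are the 9 members, listed pathway and marker genes with a probe set of a single named gene, and by rule the closest patterns. The members and lists were chosen with earlier results of these data known. Alternatives changed the offset, filter, normalization, variance trend, the arrays in the fit, and left out single arrays.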

Additional observations from a re-analysis of the deposited data

How the results depend on the processing

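Each of the 9 genes was refitted in every comparison with an offset of 1 or 64, no filter, a filter at the median, quantile normalization, arrays centred on their median, no variance trend, the replicate block, only the arrays of the groups compared, and without each array in turn. Of 2214 such values, 0 reversed a call, 36 lost one, 10 gained one, and 66 that were never called changed sign. The 54 values of the compound comparisons gave 0 calls in 702 refits, with a smallest adjusted p of 0.0683 (GSA1, 7606596 at 3 h). The number of genes called at 3 h against 0 h with 7606596 was 1 in place of 2 with no filter, with quantile normalization and with no variance trend, and 1 to 1 without single replicates. With 5929745 it was 1 in place of 3 with quantile normalization, and 1 to 2 without single replicates. In the other 16 comparisons it stayed within 1.5 times the reported number. Replicate numbers did not pair the arrays: deviations of same-numbered arrays from their group means correlated with a median r of 0.01 over 21 pairs of groups, and above 0.1 in 1. The replicate block left every count of called genes as reported (5 at 12 h against 0 h in untreated seedlings, 0 in each compound comparison). For RCA, PYK10, EXPA7, NOL and hemb2, 0 of 1194 values reversed a call, 27 lost one and 7 gained one. Weak signals such as hemb2 and EXPA7 limit what the arrays can show.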
